A study of Homo sapiens with 10 samples.

Results

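The 43 genes described here encode secreted inflammatory factors other than the interleukin-1 family, cytokine receptors, and the subunits and feedback genes of NF-κB. They were taken by gene symbol from a table of 46427 genes, whatever their values. By role they comprised 6 chemokines of the ELR-positive CXC class, 2 ligands of CXCR3, 4 other CXC or CX3C chemokines, 5 CC chemokines, 4 cytokines of the IL6 family, 3 colony-stimulating factors, 7 other interleukins, 3 cytokine receptors, 5 NF-κB subunits and 4 NF-κB feedback or target genes.

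Poly(A) RNA of 10 cultures of H460 and A549 cells, both established human lung cancer lines, had been sequenced to find genes that change in cells surviving chemotherapy and in cells growing as spheres. Parental H460 cells in two-dimensional (2D) culture gave 3 libraries. H460 cells left alive after cisplatin (CR) gave 1 library, those left after paclitaxel (PR) gave 2 and those left after doxorubicin (DR) gave 1. H460 and A549 cells in sphere culture on a non-adhesive surface, in serum-free medium with growth factors, gave 1 library each (TS, titled CTC in the labels), and A549 cells in 2D culture gave 1. The CR, PR and DR cells were the attached survivors of a short drug exposure followed by drug-free medium and re-plating, not lines kept under a drug, and the parental libraries carried no drug treatment in the labels. Cisplatin and doxorubicin damage DNA, and paclitaxel stabilizes microtubules. Nothing in the labels says that replicates came from separate cultures, so p-values measure the spread between these libraries, which may be technical. These are bulk libraries, and more cells making a transcript cannot be told apart from more of it per cell.

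NF-κB is a family of dimeric transcription factors that inhibitors of the IκB type hold in the cytoplasm. When IκB kinase is activated, by tumor necrosis factor, interleukin-1 or DNA damage among others, the inhibitor is degraded and the dimers enter the nucleus, where they bind κB motifs in promoters of chemokines, IL6 and their own inhibitors, so that NFKBIA and TNFAIP3 feed back on the pathway. The ELR-positive CXC chemokines attract neutrophils through CXCR2, CC chemokines such as CCL2 attract monocytes, and the IL6 family signals through IL6ST (gp130) to JAK and STAT3; lung carcinoma cells are known to secrete several of these factors.

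The promoters of the chemokine genes, IL6 and NFKBIA on which the results turn are shown as the bases directly before the start site, from RefSeq on GRCh38.p14, each 5′ to 3′ on the strand of its gene. Capitals mark matches to the κB motif on either strand, or for CXCL8 a match to GGAATTTCC, the κB letters it shares with CXCL1. The windows are chr4:73869243-73869392 (plus strand) for CXCL1, chr4:74099196-74099345 (minus) for CXCL2, chr4:74038690-74038839 (minus) for CXCL3, chr4:73998678-73998827 (minus) for CXCL5, chr4:73740419-73740568 (plus) for CXCL8, chr7:22727050-22727199 (plus) for IL6 and chr14:35404750-35404899 (minus) for NFKBIA.
CXCL1: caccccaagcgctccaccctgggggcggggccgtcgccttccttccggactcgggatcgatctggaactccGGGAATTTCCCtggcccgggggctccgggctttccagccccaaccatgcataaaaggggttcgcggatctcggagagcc
CXCL2: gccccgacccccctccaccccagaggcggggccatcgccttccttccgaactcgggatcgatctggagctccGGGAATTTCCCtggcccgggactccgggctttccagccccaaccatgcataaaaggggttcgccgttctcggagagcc
CXCL3: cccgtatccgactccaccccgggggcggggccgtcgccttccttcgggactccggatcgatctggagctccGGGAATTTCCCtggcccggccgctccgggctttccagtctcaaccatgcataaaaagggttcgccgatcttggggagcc
CXCL5: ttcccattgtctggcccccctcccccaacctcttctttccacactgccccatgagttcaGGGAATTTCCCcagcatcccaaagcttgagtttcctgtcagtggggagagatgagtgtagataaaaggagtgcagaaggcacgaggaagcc
CXCL8: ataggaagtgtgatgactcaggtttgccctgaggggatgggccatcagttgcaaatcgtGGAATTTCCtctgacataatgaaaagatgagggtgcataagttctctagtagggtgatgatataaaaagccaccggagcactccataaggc
IL6: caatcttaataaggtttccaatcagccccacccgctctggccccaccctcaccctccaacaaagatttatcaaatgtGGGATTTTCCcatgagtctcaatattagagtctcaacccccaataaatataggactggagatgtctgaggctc
NFKBIA: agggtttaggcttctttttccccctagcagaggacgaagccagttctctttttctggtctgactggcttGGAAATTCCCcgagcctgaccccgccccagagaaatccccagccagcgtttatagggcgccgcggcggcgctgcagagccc

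Promoter sequence was matched for 32 of the 43 genes. Within 250 bases before the start, searched on both strands, a κB motif stood in 20 of these 32 (62.5%) and in 11.8% of 27305 genes. GGAATTTCC, which lies within some of the κB matches, stood in 12 of 32 (37.5%) and in 0.502% of all genes. TGANTCA, the AP-1 motif, stood in 5 of 32 (15.6%) and in 8.06% of all genes, among them CXCL8 and IL11. The 5 printed CXC chemokine promoters all held GGAATTTCC. These matches describe letters, not binding. The CXC genes also lie close together on chromosome 4 (RefSeq, GRCh38). On the plus strand, CXCL8 spans 73740569 to 73743716, CXCL6 73836678 to 73838760 and CXCL1 73869393 to 73871308. On the minus strand, CXCL5 spans 73995642 to 73998677, CXCL3 74036589 to 74038689 and CXCL2 74097040 to 74099195. In transcripts of that annotation, CXCL1 shared 60 of its 1048 50-base words with CXCL2 (5.73%) and 6 with CXCL3, and CXCL2 shared 54 of 1169 with CXCL3 (4.62%), so a small part of the reads of these 3 genes could be counted for a neighbour. CXCL5, CXCL6 and CXCL8 shared none of their 50-base words with one another or with those 3.

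Levels are given as FPKM, a read count scaled by transcript length and library size, which is comparable between genes. In at least 1 of the 10 libraries, 32 of the 43 genes reached an FPKM of 1, 22 reached 10 and 8 reached 100. The 11 genes that never reached 1 were CXCL6, CXCL10, CXCL11, CXCL12, CX3CL1, CCL28, CSF2, CSF3, IL7, IL16 and IL23A, so the ligands of CXCR3 and 2 of the 3 colony-stimulating factors were near the lower limit in every culture. The summed FPKM of the 43 genes was 722.2, 617.4 and 633 in the parental libraries, 2644 in CR, 2020 in DR, 2225 and 3936 in PR, and 745.9 in H460 TS cells. It was 526.3 in A549 cells in 2D culture and 559.2 in A549 TS cells. CXCL1, CXCL8 and IL6 made up between 43.6% and 47.5% of this sum in the parental libraries and between 66.2% and 80.8% in the drug-survived ones, but 3.47% in A549 cells in 2D culture. The plot of all members by library shows these 3 as the brightest rows of the drug-survived columns.

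**Figure D1:**
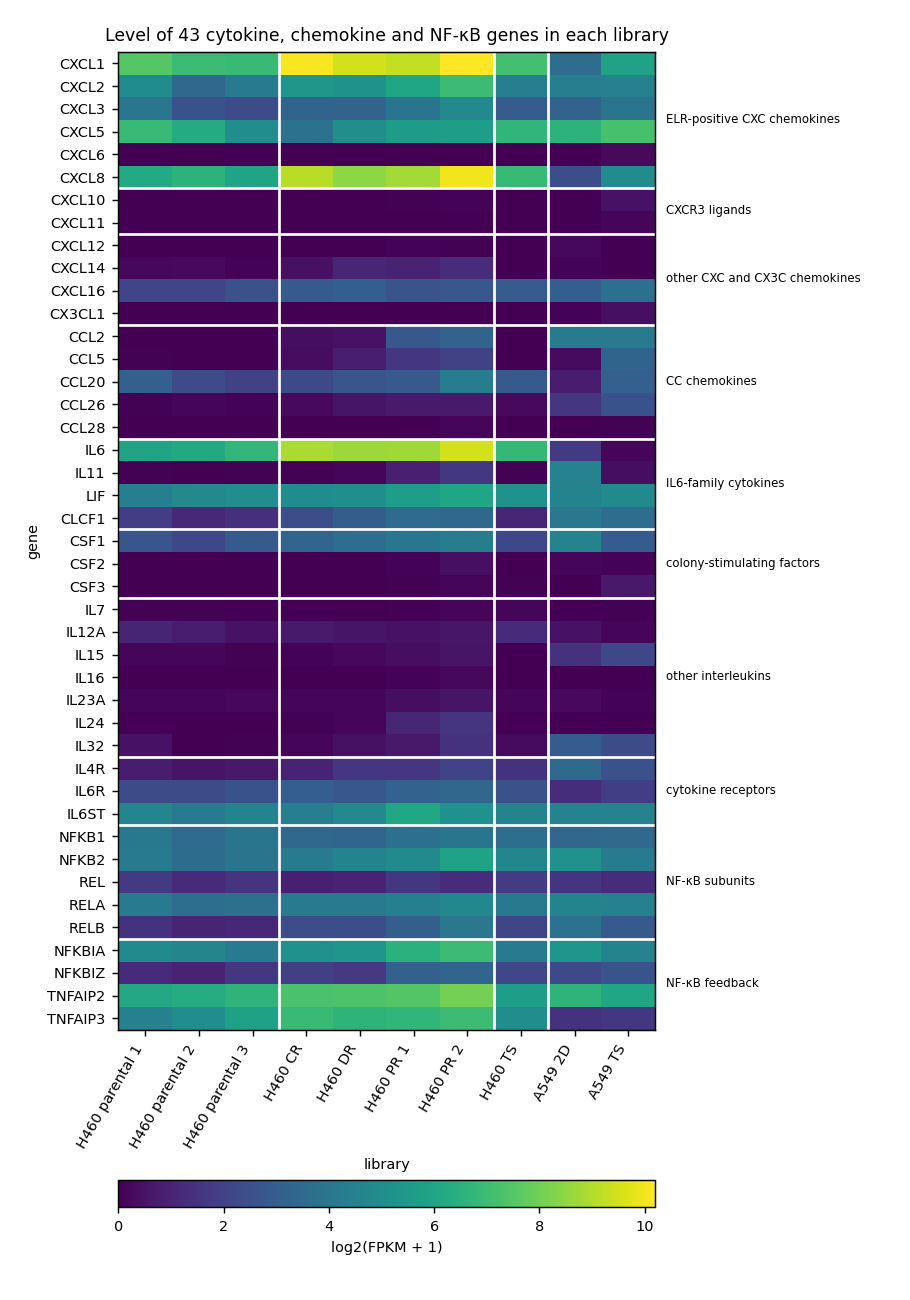
Color gives log2(FPKM + 1) of each of the 43 genes (rows, grouped by role) in each of the 10 libraries (columns, 1 library each). CXCL1, CXCL8 and IL6 are brightest in CR, DR and PR H460 cells, while rows such as CXCL6, CXCL11 and CSF2 stay dark, with no library at an FPKM of 1.

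Reads on genes numbered between 59499787 and 89541774 per library (median 71656787). CXCL6, at 0 FPKM in every H460 library, ranked 21034, 21131 and 21603 among all genes in parental cells and 22719 in CR. It ranked 26741 in DR, and 25778 and 26133 in PR. More genes thus had a value above 0 in DR and PR cells, although PR replicate 2 had the fewest reads. A rise from 0 in PR cells, such as that of CXCL12, was therefore not particular to these members. The libraries carried names of 2 forms, whose meaning the labels do not give: one form covered parental replicates 1 and 3 and PR replicate 1, the other parental replicate 2, PR replicate 2, CR and DR. Parental replicate 3 stood apart in the immediate early gene FOS, with an FPKM of 169.8 against 5.08 and 1.56 in the other 2, and 8.86% of its reads were mitochondrial mRNA against 5.13% and 4.47%. Of the epithelial markers, KRT8 (282.7 to 750.6 FPKM), KRT18 (190.4 to 349) and KRT19 (138.3 to 738.3) were high in all H460 libraries, KRT7 was at 2.37 to 11.2, and EPCAM and CDH1 were at or below 0.114 and 0.0266. In A549 cells KRT7 was 1221 in 2D culture and 372.3 in TS cells, and CDH1 was 9.29 and 11.9.

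The 4 drug-survived H460 libraries were compared with the 3 parental ones to ask which of these genes changed in survivors, whatever the drug. Of the 43 genes, 36 had enough reads to be tested, and 20 of them rose and 0 fell at an adjusted p-value under 0.05 (edgeR's quasi-likelihood test, Benjamini-Hochberg over 19902 genes), beside 18.2% of all genes tested that rose and 14.3% that fell. CXCL12, CCL2, CCL5, CCL26, IL11, IL16 and IL24 had fewer than 10 reads in every parental library. They passed the read filter only through the drug-survived libraries, which favors a call as higher, and all but CXCL12 and CCL26 were called. They are among the 36 genes in the values that follow. The 7 untested genes had too few reads in either group. Without adjustment 24 rose and 1, CXCL5, fell at p under 0.05; DESeq2 called 20 higher and 1, CXCL5, lower, and limma on log2(FPKM + 1) called 18 and none lower. The median log2 fold change was 1.47 for the 36 genes and 0.107 for all genes tested. Upper-quartile scaling shifted the median over all genes to 0.287 and the split of all calls from 3624 higher and 2841 lower to 4458 and 2007, and 22 members rose. In 21 of the 36 genes every drug-survived library lay above every parental one, beside 25.9% of all genes, and for 0 genes did every one lie below, beside 12.8%. The 3 drugs form 1 group in this test, so its spread includes differences between drugs.

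Among the ELR-positive chemokines, CXCL1, CXCL2 and CXCL8 rose. CXCL1 had an FPKM of 180.4, 125.6 and 115 in the parental libraries, 1109 in CR, 728.6 in DR, and 606.1 and 1175 in PR cells. Every survivor library was thus far above the highest parental one, and among all genes CXCL1 moved from ranks 315 to 507 to ranks 44 to 97. The change was 5.92-fold (log2 fold change 2.57 ± 0.31 SE, adjusted p = 0.000446, edgeR). CXCL8, the main neutrophil attractant of the group, had an FPKM of 74.5, 94.8 and 61 in parental, 544.1 in CR, 349.3 in DR, and 443.7 and 1009 in PR cells. The groups did not overlap, and the change was 6.92-fold (2.79 ± 0.34, adjusted p = 0.000479, edgeR). CXCL2, a close homolog of CXCL1, had lower levels, 29.7, 9.73 and 17.4 in parental, 41.5 in CR, 35.7 in DR, and 65.2 and 126.2 in PR cells. CXCL2 rose 3.12-fold (1.64 ± 0.46, adjusted p = 0.022, edgeR), with the groups not overlapping but CR and DR little above the highest parental library. The part of reads shared with the far more abundant CXCL1 in these values was not tested. Its call was lost without parental replicate 2 (adjusted p = 0.0739) and without parental replicate 3 (0.0671).

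CXCL3 and CXCL5, of the same class and gene cluster, were not called, and they were singled out after their values were seen. CXCL3 had an FPKM of 15.3, 4.95 and 4.16 in parental, 8.86 in CR, 8.42 in DR, and 14.8 and 28.7 in PR cells, and its groups overlapped (log2 fold change 0.73 ± 0.50, adjusted p = 0.28, edgeR). CXCL5 went the other way, with an FPKM of 116.7, 77 and 31.4 in parental, 13.1 in CR, 31.8 in DR, and 47.6 and 51.4 in PR cells. The CR library lay below every parental one, but parental replicate 3 lay below DR and PR, and the difference of -1.21 ± 0.45 did not pass (adjusted p = 0.0615, edgeR). DESeq2 and the fit without parental replicate 3 did call CXCL5 lower. CXCL6 had 0 reads in all H460 libraries.

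Of the other CXC chemokines, CXCL14 rose and CXCL16, which is made as a membrane-bound ligand, was not called. CXCL14 had an FPKM of 0.166, 0.181 and 0.0844 in parental, 0.371 in CR, 1.16 in DR, and 1.03 and 1.52 in PR cells, a low level with no overlap between groups (2.66 ± 0.50, adjusted p = 0.00367, edgeR). CXCL12 had 30 and 17 reads in the PR libraries and 0 in the parental, CR and DR ones, and CXCL16 ranged from 3.32 to 7.37 FPKM over the 7 libraries.

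The CC chemokines CCL2 and CCL5 rose from almost nothing. CCL2, the monocyte attractant, had 0 reads in all 3 parental libraries, 21 in CR, 30 in DR, and 381 and 419 in PR cells, which is an FPKM of 0, 0 and 0, then 0.314, 0.397, 6.08 and 8.46. With 3 reads per parental library as the floor, the drug-survived mean was at least 75.6-fold higher, and the rise was at least 6.24-fold in CR, at least 7.92-fold in DR and at least 144.1-fold in PR cells (adjusted p of the drug-survived group 0.00777, edgeR). CCL5, which attracts T cells and monocytes, had an FPKM of 0.0343, 0 and 0 in parental, 0.27 in CR, 0.806 in DR, and 2.06 and 3.06 in PR cells. Its 595 survivor reads against 4 parental reads gave a ratio per read of 105 with an exact binomial interval at 95% of 40.6 to 385, which covers counting error only (adjusted p = 0.00233, edgeR). For both genes CR and DR lay above the parental libraries and below PR. The 21 and 30 reads of CCL2 in CR and DR, which have no replicates, are too close to order these drugs. CCL20 and CCL26 were not called: CCL20 ranged from 2.89 to 7.66 FPKM in parental and from 3.9 to 18.8 in drug-survived cells, and CCL26 had 0.0501, 0.146 and 0.0649 in parental, 0.181 in CR, 0.484 in DR, and 0.655 and 0.682 in PR cells (adjusted p = 0.0587, edgeR).

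All 4 cytokines of the IL6 family had positive differences, and IL6, IL11 and CLCF1 rose. IL6, the name-giver of the family, had an FPKM of 60.3, 72.9 and 108.2 in parental, 482.3 in CR, 406.2 in DR, and 423.4 and 718.2 in PR cells. The drug-survived libraries lay far above the parental range, at 5.51-fold (2.46 ± 0.29, adjusted p = 0.000402, edgeR). CLCF1, a partner of the CNTF receptor, had 2.62, 1.22 and 1.58 in parental, 4.45 in CR, 6.99 in DR, and 10.8 and 9.89 in PR cells, a rise of 3.94-fold without overlap (1.98 ± 0.34, adjusted p = 0.00232, edgeR). IL11 was low and was carried by the PR cells, with an FPKM of 0.0436, 0.0278 and 0.0314 in parental, 0.0461 in CR, 0.0964 in DR, and 0.88 and 2.17 in PR cells. Its call in the drug-survived group (4.24 ± 1.19, adjusted p = 0.0222) was lost without any 1 of the parental libraries (adjusted p = 0.0689, 0.0841 and 0.0705 without replicates 1, 2 and 3) and without PR replicate 2 (0.0521). LIF, at 20 to 31.3 FPKM in parental and 29.7 to 62.6 in drug-survived cells, was not called (adjusted p = 0.103).

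CSF1, the growth factor of macrophages, rose 2.19-fold. Its FPKM was 5.72, 3.67 and 6.37 in parental, 9.05 in CR, 11.8 in DR, and 15.1 and 18.8 in PR cells, so that the groups were apart (1.13 ± 0.27, adjusted p = 0.0112, edgeR). CSF2 and CSF3 had 0 reads in parental, CR and DR libraries, and 6 and 19 reads (CSF2) or 6 and 11 reads (CSF3) in PR cells.

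Of the 7 other interleukins, 2 rose, both at a low level and mainly in PR cells. IL24, of the IL10 family, had an FPKM of 0.0158, 0 and 0 in parental, 0.0544 in CR, 0.123 in DR, and 1.11 and 1.91 in PR cells (adjusted p = 0.0096, edgeR). With 434 survivor reads and 3 parental reads the ratio per read was 102 (exact binomial interval 34.6 to 495, counting error only), and limma on log2(FPKM + 1) did not call it (adjusted p = 0.0954). IL16 had an FPKM of 0.00322, 0 and 0 in parental, 0 in CR, 0.0212 in DR, and 0.0602 and 0.154 in PR cells. Its call (adjusted p = 0.0335) rested on 176 reads against 3 and was lost in 8 of 12 alternatives, among them leaving out parental replicate 1, 2 or 3 (adjusted p = 0.0627, 0.107 and 0.0962) or PR replicate 1 or 2 (0.0535 and 0.081). IL7, IL12A, IL15, IL23A and IL32 were tested and not called, with drug-survived levels between 0.00386 and 1.84 FPKM.

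The receptors IL4R and IL6R rose and the shared subunit IL6ST was not called. IL4R had an FPKM of 0.709, 0.498 and 0.624 in parental, 0.952 in CR, 2.05 in DR, and 2.09 and 3.2 in PR cells, without overlap and at 2.77-fold (1.47 ± 0.32, adjusted p = 0.00792, edgeR). IL6R, the binding subunit for IL6, moved less, from 4.01 to 4.93 FPKM in parental to 5.86 to 9.25 in drug-survived cells (0.69 ± 0.20, adjusted p = 0.0243), and its call was lost without parental replicate 1 (0.0783), parental replicate 2 (0.0866), CR (0.0519) or PR replicate 2 (0.06). IL6ST was at 16.8 to 24.1 FPKM in parental and 19.7 to 65.7 in drug-survived cells.

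Among the NF-κB subunits, RELB and NFKB2, the pair of the non-canonical pathway, rose, and NFKB1, RELA and REL were not called. RELB had an FPKM of 1.84, 1.08 and 1.28 in parental, 4.31 in CR, 4.54 in DR, and 7.61 and 15.4 in PR cells, without overlap and at 5.01-fold (2.32 ± 0.42, adjusted p = 0.00304, edgeR). NFKB2 had 17.8, 11.1 and 14.1 in parental, 17.5 in CR, 23.6 in DR, and 28.8 and 57.6 in PR cells. CR lay within the parental range, and the call (1.00 ± 0.34, adjusted p = 0.0465) was lost in 9 of 15 alternatives, with an adjusted p of 0.0646, 0.156 and 0.0995 without parental replicates 1, 2 and 3, of 0.0501 without DR, and of 0.0619 and 0.0958 without PR replicates 1 and 2. NFKB1, whose product p50 pairs with RELA, had 16.2, 10.9 and 14.7 in parental, 9.76 in CR, 8.93 in DR, and 12.2 and 14.4 in PR cells (-0.45 ± 0.21, adjusted p = 0.112). RELA had 16.7, 11.7 and 12.8 in parental, 16.8 in CR, 17.1 in DR, and 20.4 and 26.5 in PR cells. Its drug-survived libraries were all above the parental ones, CR by a margin smaller than the parental spread, and the difference of 0.41 ± 0.20 was not called (adjusted p = 0.135). REL, at 0.841 to 2.3 FPKM over the 7 libraries, had a difference of -0.61 ± 0.31 (adjusted p = 0.15).

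All 4 feedback and target genes of NF-κB rose. TNFAIP3, the ubiquitin-editing enzyme A20 that shuts the pathway off, had an FPKM of 20.6, 30.7 and 56.3 in parental, 119.5 in CR, 97.2 in DR, and 103.9 and 126.3 in PR cells, at 2.78-fold (1.48 ± 0.34, adjusted p = 0.00985, edgeR). NFKBIA, which encodes the inhibitor IκBα, had 28, 24.1 and 17.4 in parental, 34.8 in CR, 38.5 in DR, and 89.7 and 125.6 in PR cells. The 2 PR libraries stood well above the rest (1.47 ± 0.39, adjusted p = 0.0176), and the call was lost without parental replicate 2 (0.0625) or 3 (0.0661). NFKBIZ, an atypical IκB that helps induce IL6, had 1.42, 0.971 and 2.15 in parental, 2.8 in CR, 2.25 in DR, and 7.74 and 9.08 in PR cells. DR exceeded the highest parental library by a small margin, and the call (1.65 ± 0.48, adjusted p = 0.0251) was lost without parental replicate 1 (0.0848), parental replicate 2 (0.0956), PR replicate 1 (0.0546) or PR replicate 2 (0.0618). TNFAIP2, a gene first found as induced by tumor necrosis factor, had 70.2, 78.4 and 98.7 in parental, 155.6 in CR, 162.9 in DR, and 174 and 267 in PR cells, at 2.05-fold without overlap (adjusted p = 0.00905). Members went both ways in parental replicate 3, the library with high FOS. TNFAIP3, TNFAIP2, NFKBIZ and IL6 had their highest parental value there, and NFKBIA, CXCL1, CXCL3, CXCL5 and CXCL8 their lowest.

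**Figure D2:**
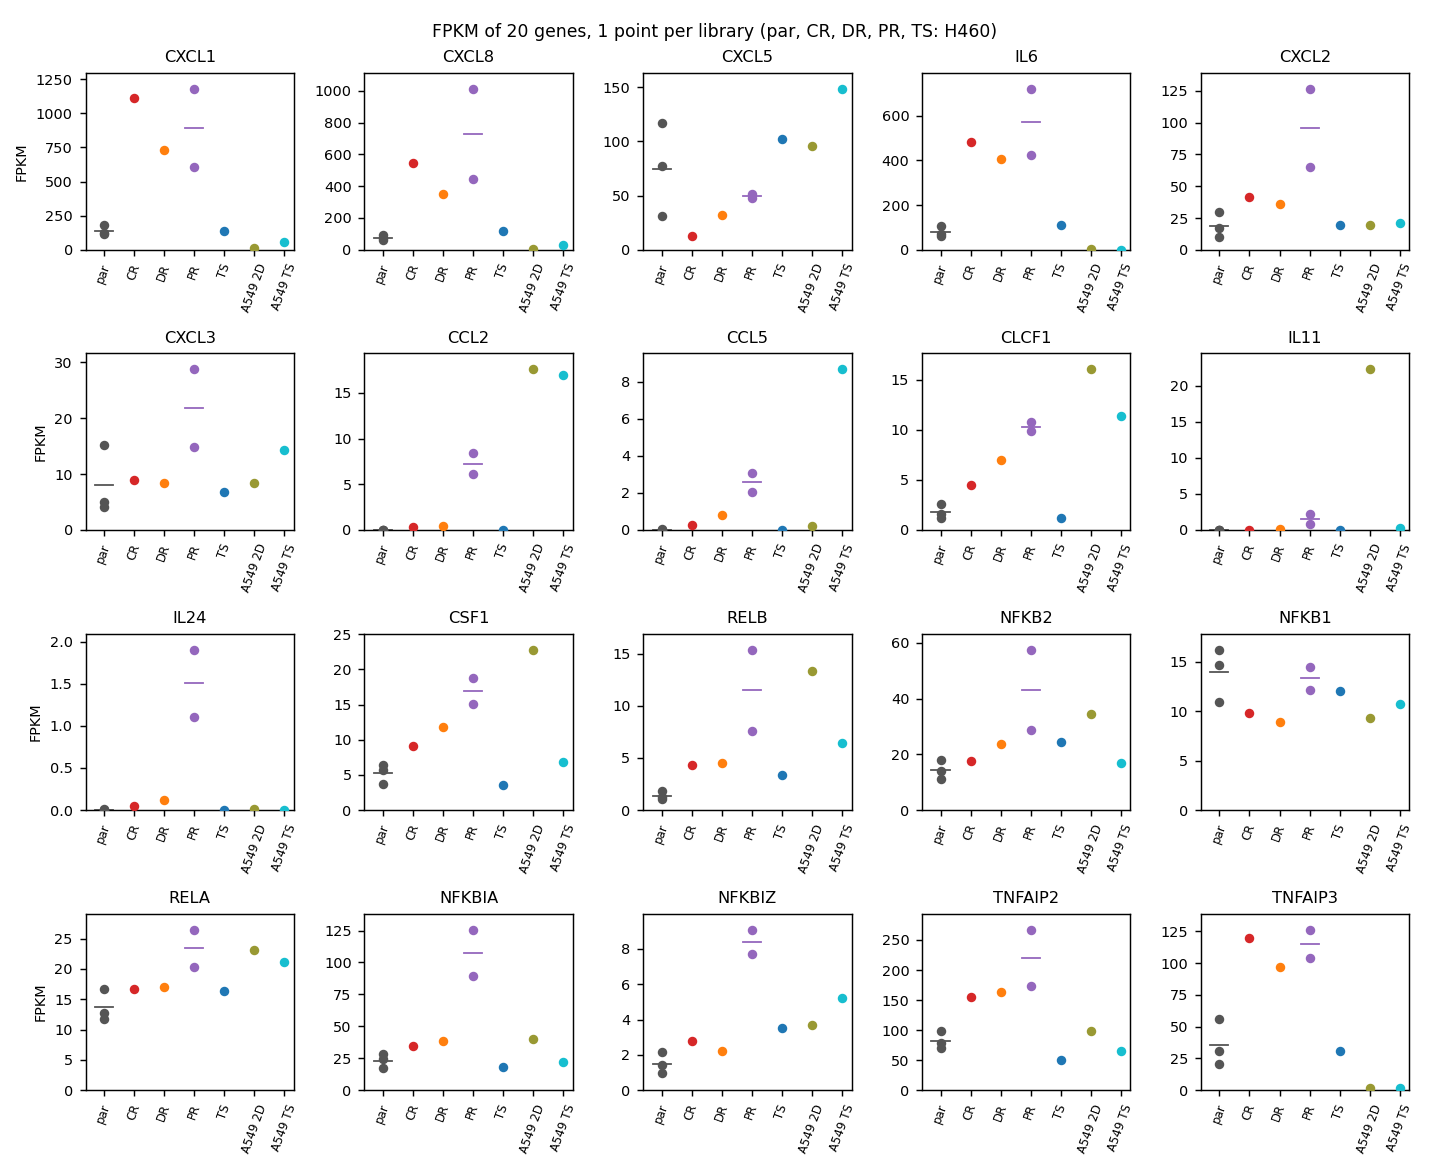
FPKM (vertical axis, linear, scaled per gene) of 20 of the genes, with 1 point per library and a short line at the mean of the parental and PR libraries; par, CR, DR, PR and TS are H460 cells. CXCL1, CXCL8 and IL6 are high in all 4 drug-survived libraries, NFKBIA, NFKBIZ, CCL2 and IL24 are high in the PR libraries, and CXCL5 is lowest in CR.

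The calls were also examined within the forms of library name. The median log2(FPKM + 1) difference of the 20 called genes was 1.53 in the form with 1 PR and 2 parental libraries and 1.32 in the form with 3 drug-survived libraries and 1 parental library, and 13 of the genes were past 2-fold in both. The genes were chosen on these same libraries, so their direction within a form is no check of the calls. With the form as a covariate, 19 genes were called. Markers of other cell types moved in the same direction. The summed FPKM of 12 leukocyte markers was 18 to 26.4 in parental and 42.7 to 72.6 in drug-survived libraries, and 3 of its 6 tested genes (PTPRC, CD68 and ITGAM) rose. Nearly all of that sum was CD68 and CD14, while PTPRC (CD45) stayed at or below 0.157 FPKM and CD3D at 0 in every library. The sum of 10 fibroblast and endothelial markers was 1.3 to 6.04 in parental and 6.22 to 19.7 in drug-survived libraries. Of its genes 6 of 8 tested rose, and COL1A1 reached 6.51 in PR cells. Of all genes tested, 18.2% rose. PTPRC, ITGAM, COL1A2, PDGFRA and PECAM1 were at 0 FPKM in every parental library. They passed the read filter only through the drug-survived libraries, which favors a call as higher. Whether other cell types were present, and their part in the cytokine values, was not tested.

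Counted against the mean of the parental libraries on log2(FPKM + 1), with more than 2-fold as the limit and no test, CR cells had 6 genes higher and 1 lower of 23 with an FPKM of at least 1, beside 5.84% and 7.05% of all genes. DR cells had 8 higher and 1 lower of 25, beside 5.76% and 5.68%, and PR cells had 21 higher and 0 lower of 30, beside 7.62% and 5.62%. This scale understates changes of genes with a low FPKM. The 6 genes past 2-fold with all 3 drugs were CXCL1, CXCL2, CXCL8, IL6, RELB and TNFAIP3, and CXCL5 was the lower gene in both CR and DR. The comparisons share their parental libraries. The largest difference in CR cells was that of CXCL1 (3.00 on the log2 scale, 8.01-fold), and in PR cells that of CXCL8 (3.13, 8.75-fold). A further 13 genes passed 2-fold in PR cells and in neither CR nor DR, namely CXCL3, CCL2, CCL5, CCL20, IL11, LIF, IL24, IL4R, IL6ST, NFKB2, NFKBIA, NFKBIZ and TNFAIP2, and 0 did so in CR or DR and not in PR. TNFAIP2 was close to the limit in CR (0.92) and DR (0.99), and IL4R in DR (0.92). CXCL2 (1.01) and CXCL5 (-1.03) lay just past it in DR. The share of all genes past 2-fold with all 3 drugs, or with PR alone, was not counted, so the counts of 6, 13 and 0 are not shown to be particular to these members. Of 19902 genes tested, 41.9% had both PR libraries above CR and DR, and 15.0% had both below.

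**Figure D3:**
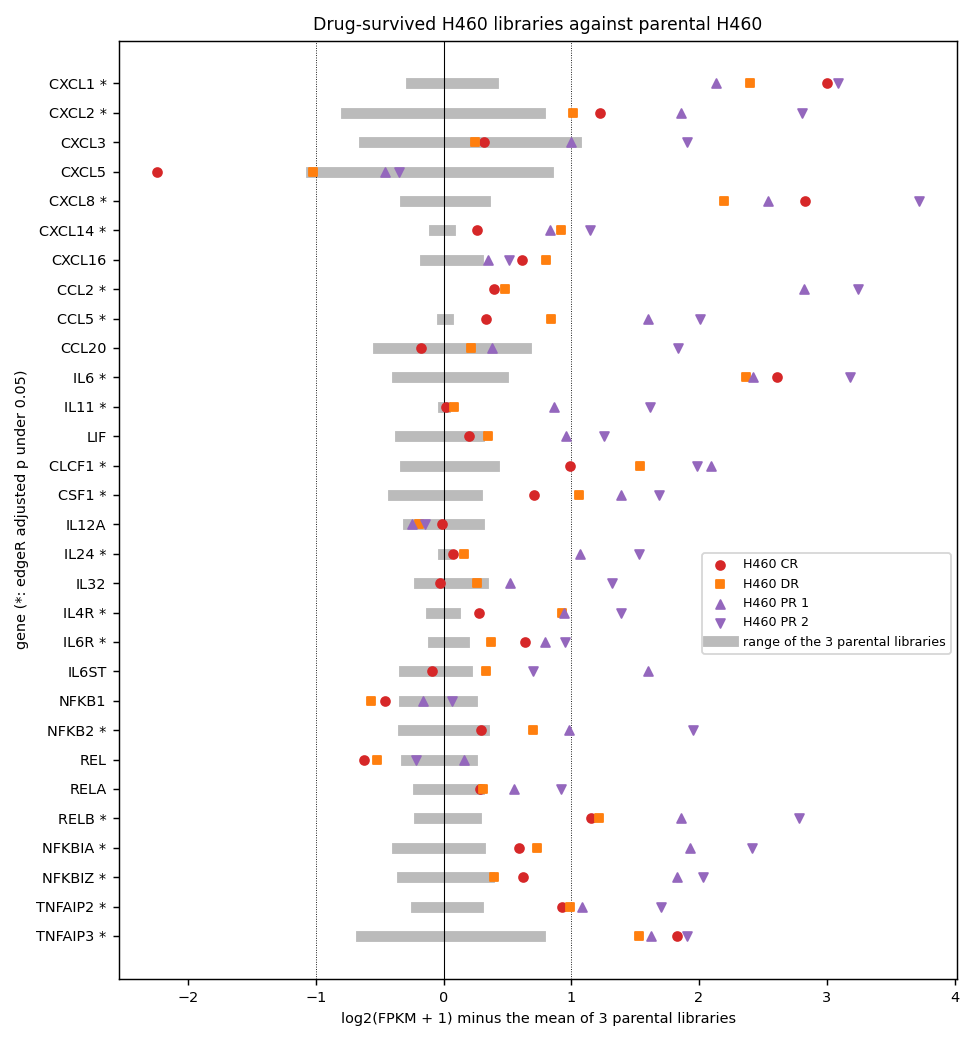
Difference of log2(FPKM + 1) from the mean of the 3 parental libraries (horizontal axis) for each gene with an FPKM of at least 1, with 1 symbol per drug-survived library and a grey bar for the range of the parental libraries; dotted lines mark 2-fold and stars the genes called by edgeR. Symbols of CXCL1, CXCL8, IL6, RELB and TNFAIP3 lie past 2-fold in all 4 libraries, and for NFKBIA and NFKBIZ those of PR lie apart from CR and DR.

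PR cells, the survivors with replicate libraries, had 23 genes higher and 0 lower than parental cells of 36 tested, beside 17.4% and 10.7% of 19430 genes (edgeR, Benjamini-Hochberg). Without adjustment 27 were higher and 0 lower, DESeq2 called 23 and limma on log2(FPKM + 1) called 21, all higher, and the edgeR fit without parental replicate 3 added CXCL5 as lower. The median log2 fold change was 1.57 against 0.054 for all genes. With upper-quartile scaling the latter was 0.296, all calls split into 4274 higher and 1355 lower instead of 3387 and 2079, and 27 members were higher. The 23 were the 20 named above with CXCL12, CCL26 and LIF. Of these, CXCL12, CCL2, CCL5, CCL26, IL11, IL16 and IL24 had fewer than 10 reads in every parental library. They passed the read filter only through the PR libraries, which favors a call as higher. LIF, which keeps stem cells undifferentiated in culture, had 51 and 62.6 FPKM in PR against 20, 27 and 31.3 in parental cells (0.88 ± 0.27, adjusted p = 0.0392). CXCL12, the ligand of CXCR4, was at least 8.17-fold higher by its reads (adjusted p = 0.00525), at an FPKM of 0.062 and 0.043. CCL26, an eosinophil attractant, was 4.98-fold higher (adjusted p = 0.0356). The count depended on the 2 PR libraries: 13 genes were called without replicate 1 and 7 without replicate 2, the latter being CXCL1, IL6, CXCL8, NFKBIA, RELB, CLCF1 and NFKBIZ. TNFAIP3, for example, was 2.66-fold higher (adjusted p = 0.0315) but was not called without PR replicate 1 (0.098), PR replicate 2 (0.201) or parental replicate 2 (0.114).

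Whether paclitaxel survivors differed from those of the DNA-damaging drugs was tested as PR against CR and DR, 2 libraries each. In 29 of the 36 tested genes both PR libraries lay above both others, beside 41.9% of all genes, and in 1, CXCL16, both lay below, beside 15.0%. By edgeR 0 members were called, beside 0.0% of 19902 genes in each direction, with 15 members and 2484 genes of all at an unadjusted p under 0.05. DESeq2 called 5 members higher (IL11, NFKBIA, CCL2, IL24 and NFKBIZ) and limma on log2(FPKM + 1) called 5 (NFKBIA, CCL2, CCL5, IL24 and NFKBIZ). Without parental replicate 1, which enters only the estimate of the spread, edgeR called 3 (IL11, CCL2 and IL24). The median log2 difference was 0.91 for the members and 0.028 for all genes. The sizes differed between members. CCL2 was higher by 4.14 ± 0.46 (adjusted p = 0.11), IL11 by 4.17 ± 0.60 (0.11), IL24 by 3.90 ± 0.74 (0.128), NFKBIZ by 1.55 ± 0.38 (0.179), NFKBIA by 1.37 ± 0.26 (0.128) and RELB by 1.18 ± 0.36 (0.236). The 8 members that reached an FPKM of 100 in a library varied as well. The difference was -0.24 ± 0.36 for CXCL1, 0.50 ± 0.38 for CXCL8, 0.19 ± 0.34 for IL6, 0.29 ± 0.28 for TNFAIP2 and -0.09 ± 0.44 for TNFAIP3, against 0.97 ± 0.53 for CXCL5, 1.11 ± 0.48 for CXCL2 and the 1.37 of NFKBIA.

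The other genes of these pathways were taken from 4 lists, beside 18.2% of all genes tested that rose and 14.3% that fell in drug-survived cells. Of 36 genes of the NF-κB signaling machinery, 7 rose and 2 fell in drug-survived cells, a share near the 18.2% of all genes that rose, with a median log2 fold change of 0.18. The 2 highest were BIRC3 (2.29 ± 0.59, adjusted p = 0.0157), a ubiquitin ligase of the receptor complex that was at 6.93 and 9.51 FPKM in PR against 0.545 to 1.13 in parental cells, and IRAK2 (2.21 ± 0.54, adjusted p = 0.0126), a kinase of the interleukin-1 receptor pathway. The 2 lowest were TRAF5 (-1.05) and TIFA (-0.69). Of 31 receptors 20 were tested, and 8 rose and 1 fell. The 2 highest by fold, CXCR2 and IL2RG, were listed at 0 in the parental libraries and reached 0.135 and 0.28 FPKM, so that the receptor of the ELR-positive chemokines was near the lower limit in every library, as was CXCR1 (at most 0.0188). LIFR, the LIF receptor, fell (-0.82 ± 0.26, adjusted p = 0.0357), and the next lowest called was IL13RA1, which rose from 10.1 to 12.3 FPKM in parental to 29.5 to 40.9 in drug-survived cells (1.48 ± 0.22, adjusted p = 0.00114). Of 15 JAK-STAT genes 6 rose and 2 fell: STAT3 was highest (1.03 ± 0.19, adjusted p = 0.00353), at 9.24 to 12.8 FPKM in parental and 22.4 to 28.2 in drug-survived cells, then STAT5A (1.02), and CISH (-1.34) and PTPN11 (-0.68) were lowest. Of 16 AP-1 and C/EBP genes 15 were tested, and 3 rose and 2 fell, near the shares of all genes. ATF3 (2.30 ± 0.72, adjusted p = 0.0336, edgeR) and JUNB (1.31 ± 0.33, adjusted p = 0.0137, edgeR) were highest and BATF3 (-1.20) and CEBPG (-0.76) lowest.

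Sphere culture was compared with 2D culture in both lines, to ask which of these genes change in cells that grow as spheres. The sphere medium was serum-free with growth factors and the 2D medium held serum, so medium and lack of attachment cannot be told apart. In H460 TS cells 0 of 24 genes with an FPKM of at least 1 passed 2-fold in either direction, beside 1.93% of all genes higher and 1.97% lower. The highest differences were those of RELB (0.89 on the log2(FPKM + 1) scale), NFKBIZ (0.87), IL4R (0.79) and NFKB2 (0.75). RELB was at 3.41 FPKM in H460 TS cells, above the 3 parental libraries, NFKBIZ at 3.5 and NFKB2 at 24.4. CXCL1 (141.1), CXCL2 (19.3) and NFKBIA (18.2) lay within the parental range, CXCL8 (121) and IL6 (109.4) above it, and TNFAIP2 (49.6) below it. CXCL14 and IL15 had 0 reads, which is at least 5.88-fold and 6.26-fold lower by the floor of 3 reads, at levels of less than 0.2 FPKM in 2D culture.

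A549 cells started from other levels. In 2D culture they had little CXCL1 (11.5 FPKM), CXCL8 (4.42), IL6 (2.31) and TNFAIP3 (1.78), but more CCL2 (17.6), IL11 (22.2), CLCF1 (16), IL4R (10.7), IL32 (6.74) and RELB (13.3) than parental H460 cells, in 1 library and with no test. CXCL2 (19.7), CXCL5 (96) and IL6ST (22.7) lay within the range of the parental H460 libraries. In A549 TS cells 4 of 29 genes were more than 2-fold higher and 3 lower, beside 6.7% and 3.02% of all genes. The higher ones were chemokines. CXCL1 went from 11.5 to 57.5 FPKM (2.22 on the log2 scale), CXCL8 from 4.42 to 29.1 (2.47), CCL5 from 0.226 to 8.66 (2.98) and CCL20, a ligand of CCR6, from 0.725 to 7.65 (2.33). CXCL10, CXCL6 and CXCL11 had 0 reads in 2D culture and 39, 24 and 15 reads in TS cells, at least 12-fold, 7.38-fold and 4.61-fold higher, with an FPKM of at most 0.405. The lower ones were IL11, from 22.2 to 0.284 (-4.18), CSF1, from 22.8 to 6.86 (-1.60), and IL6, from 2.31 to 0.122 (-1.56). CCL26 (0.96) lay just inside the limit, as did NFKB2 (-0.97), IL4R (-0.97) and RELB (-0.94), and with a pseudocount of 0.1 in place of 1 the count was 12 instead of 7. CCL2, at 17.6 and 16.9, LIF, at 23.4 and 28.4, and RELA, at 23.1 and 21.2, differed little between the 2 A549 libraries, for which there is no replicate check. The summed leukocyte markers were 22.6 in A549 cells in 2D culture and 118.1 in TS cells, of which CD68 made up 19.6 and 69.8, LYZ (lysozyme) 0 and 37.8 and CD14 2.37 and 10.1. LYZ was the leukocyte marker called in the test of the difference between lines given further on (adjusted p = 0.0391, edgeR), and CD3D was at 0. The part of these markers in the chemokine values was not tested.

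**Figure D4:**
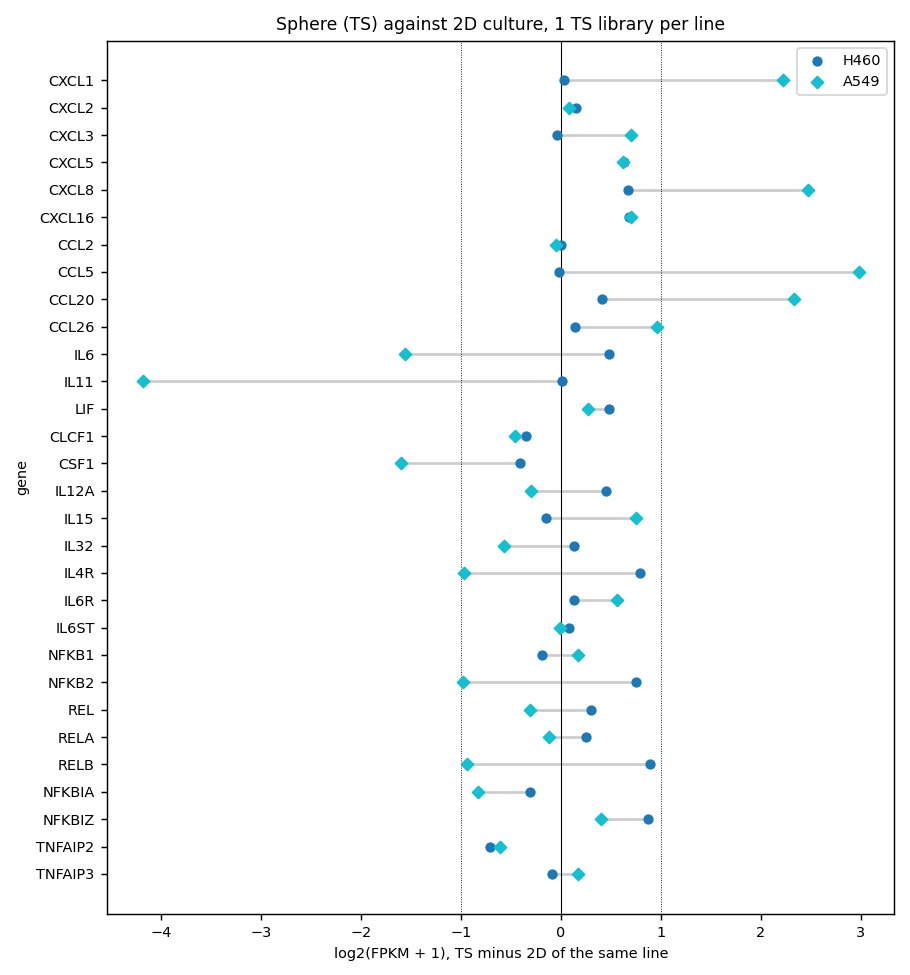
Difference of log2(FPKM + 1) between TS and 2D culture of the same line (horizontal axis), with a circle for H460, a diamond for A549 and a grey line joining them; each TS value is 1 library and dotted lines mark 2-fold. All H460 circles lie within 2-fold, while A549 diamonds lie past it for CXCL1, CXCL8, CCL5 and CCL20 on the right and IL11, CSF1 and IL6 on the left.

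With both lines in 1 fit and the line as a covariate, 0 of 34 tested genes were called for TS against 2D culture, beside 0.146% of all genes higher and 0.0433% lower (edgeR, Benjamini-Hochberg over 18488 genes), and 4 were higher and 3 lower at an unadjusted p under 0.05. CXCL8 came nearest among abundant members (1.60 ± 0.49, adjusted p = 0.385), and DESeq2 called it alone. Without the H460 TS library, the fit compares 1 A549 TS with 1 A549 2D library and no longer tests both lines. In it CXCL8 was higher and IL6 and IL11 were lower in TS cells. The fit of the difference of the TS effect between the lines had 1 library in each of 3 of its 4 arms. Its spread comes from the 3 parental libraries only, and the lone libraries are assumed to vary like them, so a call sets these libraries apart and does not show that the lines differ. Under that assumption IL11 passed the threshold, with a value for A549 minus H460 of -6.62 ± 0.86 on the log2 scale (adjusted p = 0.0243), 1 of 34 genes beside 0.0974% of all genes lower and 0.389% higher. IL6 (-4.13 ± 0.75, adjusted p = 0.0702), CXCL1 (2.35 ± 0.61, adjusted p = 0.189) and CXCL8 (2.08 ± 0.58, adjusted p = 0.218) did not pass in edgeR, and DESeq2 called these 3, IL4R and IL15 beside IL11. Leaving out parental replicate 1 gave 4 calls (IL6, IL11, IL15 and RELB), and leaving out replicate 2 or 3 gave 2 (IL6 and IL11).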

How the data were processed

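Poly(A) RNA of 10 cultures had been sequenced by the authors (TruSeq libraries, HiSeq). For each library the authors deposited 3 values for each of 46427 genes, a whole-number read count, its FPKM and its TPM, the FPKM and TPM normalized for transcript length and depth. The submitters' processing notes name GRCh38, bcl2fastq 1.8.4, Trimmomatic, HISAT2 2.1.0 and StringTie 2.1.3b, and how reads shared between genes were counted is not given in the sources used here. If the counts were derived from StringTie coverage, a count need not be 1 independent read. Depth is given with the results; intervals and floors cover counting error only.

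The deposited counts were tested with edgeR 4.0.16 (glmQLFit and glmQLFTest, TMM) in R 4.3.3, for genes with at least 10 reads in at least 2 libraries, with Benjamini-Hochberg adjustment over all genes tested and a threshold of 0.05. The SE of a log2 fold change was its size divided by the square root of the quasi-F statistic. Comparisons with 1 library used log2(FPKM + 1) and a limit of 2-fold, after the fold-change limit of the study, where at least 1 of the libraries compared reached an FPKM of 1; TPM served as an alternative. Further alternatives were DESeq2 1.42.0, limma 3.58.1 (trend) on log2(FPKM + 1) or log2(FPKM + 0.1), upper-quartile scaling, other filters, the form of library name as a covariate, a replicate block and each library left out. The script of each fit was tested on simulated data. There 11.5% of calls in PR against parental and 11.7% in the difference between lines were false, above the threshold of 0.05. True 2-fold changes were recovered in 29.4% (drug-survived), 13.2% (PR against parental), 8.82% (PR against CR and DR), 5.88% (TS) and 0% (difference between lines). A count of 0 calls therefore does not show that no gene changed. Python 3.11.15, numpy 2.4.6, pandas 2.3.3 and matplotlib 3.10.9 were used for the rest.

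The genes, lists and tests were chosen with earlier results of these data known. Values in every parental and drug-survived H460 library are given for genes called and at least 2-fold apart in any edgeR fit. The same holds for CXCL8, IL6, NFKB1, RELA, NFKBIA and TNFAIP3. Sphere and A549 values are given for some of these genes only. From the 4 pathway lists the 2 highest and 2 lowest called genes are named. CXCL3 and CXCL5 were added after their values were seen. Sequences were from RefSeq and positions from GENCODE 29, both on GRCh38.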

Additional observations from a re-analysis of the deposited data

Results flagged for a closer look

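For IL11 the fitted difference of the sphere culture effect, A549 minus H460, was -6.62 on the log2 scale and passed the threshold (edgeR's quasi-likelihood test, adjusted p = 0.0243). IL11 had an FPKM of 22.2 in A549 cells in 2D culture and 0.284 in A549 TS cells, against 0.0278 to 0.0436 in parental H460 cells and 0.0453 in H460 TS cells. H460 TS and both A549 cultures had 1 library each and the spread came from the parental H460 libraries, so culture, line and library cannot be told apart.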

How the results depend on the processing

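Of 596 recomputed fold changes of called members, 530 kept their call and direction, 66 lost the call, 47 of them by leaving out a library, and 0 reversed. In the drug-survived comparison 12 of the 20 genes were called under every alternative that tested them; NFKB2 (9 of 15), IL16 (8 of 12), IL6R (5 of 15), IL11 (4 of 12), NFKBIZ (4 of 15), and CXCL2, IL24 and NFKBIA (2 of 15 each) were not. Over its alternatives the adjusted p ranged from 0.0127 to 0.156 for NFKB2, 0.00454 to 1 for IL16, 0.00501 to 0.0866 for IL6R, 6.4e-05 to 0.0841 for IL11, 0.00122 to 0.0956 for NFKBIZ, 0.000802 to 0.0739 for CXCL2, 0.000831 to 0.0954 for IL24 and 0.000614 to 0.0661 for NFKBIA, in PR against parental from 0.00338 to 0.201 for TNFAIP3, and in the difference between lines from 4.91e-09 to 0.142 for IL11. The count of 0 in PR against CR and DR became 5 with DESeq2, 6 with no filter on low counts, 5 with limma on log2(FPKM + 1) and 1 with limma on log2(FPKM + 0.1). For TS against 2D over both lines the count of 0 became 1 with DESeq2. The 1 gene of the difference between lines became 6 with DESeq2 and 0 with no filter on low counts, where IL11 had an adjusted p of 0.142. It was 0 with the filter on FPKM and with limma at a pseudocount of 1 or 0.1, where IL11 was not tested because it reached an FPKM of 1 in 1 of these libraries. Past 2-fold from each parental library singly were 12 genes in PR instead of 21 and 4 in DR instead of 9. In H460 TS cells it rose from 0 to 3 by using a pseudocount of 0.1, 3 with TPM, and 1, 3 and 1 against parental replicates 1, 2 and 3 alone, and in A549 TS cells 7 became 12 with a pseudocount of 0.1.

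Leaving out 1 library gave 14 to 21 called genes in the drug-survived comparison, 7 to 26 in PR against parental, 0 to 3 in PR against CR and DR, 0 to 3 in TS against 2D, and 2 to 4 in the difference between lines, and for the 2-fold counts 15 to 22 in PR, 6 to 8 in CR, 6 to 10 in DR and 0 to 2 in H460 TS cells. Where a group was left with 1 library, its spread was taken from the other groups.

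PR and parental replicates 1 and 2 share numbers, but nothing says that they were paired, and over 12496 genes the differences between these replicates in PR and in parental cells correlated at 0.156. A replicate block on these 2 pairs gave 24 members, against 23 without it.

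CR, DR and both TS cultures had 1 library each, so drug and library cannot be told apart there. Genes with few reads, such as IL16 and CXCL12, rest on counting error as well as replicate spread, and the form of library name was not balanced over the groups.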
